A study of Mus musculus with 16 samples.

Results

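The genes described here are the splicing factor and hnRNP genes of the mouse, taken as the protein-coding RefSeq genes of chromosomes 1 to 19 in GRCm38 (mm10) whose symbols start with Srsf, Snrp, Sf3a, Sf3b, Prpf or Hnrnp. Snrpn, which is imprinted, was left out. The choice was by name and used no measured value, and it gave 64 of the 20665 autosomal protein-coding genes: 11 Srsf, 11 Snrp, 9 Sf3a and Sf3b, 13 Prpf and 20 Hnrnp genes. The embryos were at the late 2-cell stage, 36 h after fertilization. In the control embryos the zygote had been injected with water, and in the other group with mRNA of an Hdac1 mutant, a changed form of histone deacetylase 1, which removes acetyl groups from histones. The labels used here do not give the amino acid change, the mouse strain or the number of embryos per library, and the control received water rather than wild-type Hdac1 mRNA. In each group the histone marks H3K27ac and H3K4me3 were profiled by ULI-NChIP-seq, a native chromatin immunoprecipitation for very few cells, with 2 immunoprecipitated and 2 input libraries per mark and group. The deposited result is 1 list of called peaks per mark and group.

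Introns are removed from pre-mRNA by the spliceosome, which is built from small nuclear RNAs and their proteins. The Snrp genes encode the Sm ring and the proteins specific to single snRNPs, Sf3a and Sf3b subunits let the U2 snRNP bind the branch point, and Prpf proteins act in the tri-snRNP and in the catalytic core. SR proteins (Srsf) bind exonic enhancers and mostly promote the use of an exon, while hnRNP proteins coat nascent RNA and often oppose it. These genes are needed in nearly every cell, and at the late 2-cell stage the mouse embryo is transcribing its own genome in place of stored maternal RNA. H3K27ac marks active promoters and enhancers, and H3K4me3 marks promoters, mostly those with many CpG sites.

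The control H3K27ac list held 73320 autosomal peaks over 241.8 Mb, and the mutant list 114737 peaks over 237.2 Mb. The control H3K4me3 list held 83220 peaks over 246.7 Mb, and the mutant list 83290 peaks over 272.9 Mb. The lists give a chromosome, a start and an end for each peak and no height, so a gene is described by whether a peak lies at it, by the width of the peak and by the bases it covers. Because each group has a single list for its 2 libraries, no spread between replicates can be given, no test was possible, and every difference below is between these lists. Read depth is not in the lists, and in pooled chromatin a peak in fewer cells and less of the mark per cell cannot be told apart. All 8 genes of a set active in the 2-cell embryo, Zscan4c, Zfp352 and Duxf3 among them, had a peak of either mark at a gene end in every list, except that Zscan4c had no H3K4me3 peak in the control list. Peaks of H3K27ac at cumulus and granulosa cell genes were listed for 1 of 8 in the control and 4 of 8 in the mutant, and peaks of H3K4me3 for 7 of 8 in both. Of 6 sperm genes 3 and 4 had H3K27ac and 2 and 3 had H3K4me3, and of 7 matched oocyte genes 4 and 6, then 6 and 7. Over all genes the shares with a peak were 56.3% and 59.3% for H3K27ac and 76.4% and 75.1% for H3K4me3. The part of these other cells in the values below was not tested.

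Splicing factor and hnRNP genes nearly all carried both marks in the control embryos, and at this coarse level most kept them in the mutant list. A gene was called marked where a peak overlapped the 2 kb on either side of its start or its end. H3K27ac was listed at 61 of the 64 genes in the control and at 57 in the mutant, against 56.3% and 59.3% of all genes. H3K4me3 was listed at 63 and 62 (76.4% and 75.1%). Both marks were present at 61 genes in the control and 56 in the mutant, where all genes gave 52.4% and 53.1%. Of these 61, 54 had both marks in the mutant too (76.8% of all such genes), H3K4me3 was the single mark left at 6 (18.1%) and H3K27ac at 1 (3.22%). Of the 61 control genes with H3K27ac, 6 had none in the mutant (9.84%, against 22.6% of all genes with the mark in the control). With the windows at listed starts alone, which cover 56 of the genes, H3K27ac was in the control only at 13 of 51, against 33.1% of all genes. The 6 were Snrpe and Snrpd2, which encode Sm ring proteins, Sf3b5, a small subunit of SF3b, Prpf19, the ubiquitin ligase that gives its name to the Prp19 complex, and the hnRNP genes Hnrnpdl and Hnrnpul1. H3K27ac was listed only in the mutant at Prpf6, which bridges the U4/U6 and U5 snRNPs, and at Srsf11, an SR-related protein, which makes 2 of the 3 genes without it in the control, against 35.9% of all such genes. For H3K4me3 the only difference was Prpf40b, a U1-associated protein, which had a peak in the control list alone, 1 of 63 against 8.14%. The remaining gene without any peak in the 4 lists was Hnrnpa1l2-ps2, which by its name is a processed copy of an Hnrnpa1-like gene and is annotated as protein coding.

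The bases under H3K27ac peaks were fewer in the mutant list at most of these genes. For H3K4me3 the balance differed with the window used. The median gene had 50% of its end windows under H3K27ac peaks in the control and 40.9% in the mutant, and the upper quartile was 72% and 50%. Over all genes, many of them without a peak, the median was 6.8% and 8.76%, while the upper quartile was 50% and 41.5%. In the windows at listed starts alone the splicing gene medians were further apart, at 3696 bp and 1742 bp, a ratio of 0.471. There the median over all genes was 0 in both lists. For H3K4me3 the end-window medians were 50% and 51.8%, with 38.3% and 42.5% over all genes. H3K27ac covered fewer bases in the mutant at 42 of the 63 genes with a peak in either list, against 52.7% of all genes, and more at 20, against 45.4%. It was lower by more than 2-fold at 24 of the 61 genes with the mark in the control (40.5% over all genes), so this larger difference was about as frequent as elsewhere. H3K4me3 covered fewer bases at 26 of 63 genes and more at 26, where all genes gave 40.2% and 53.1%. Of the 63 genes with H3K4me3 in the control, 4 had more than 2-fold fewer covered bases (13.1% of all genes). In the windows at listed starts alone, H3K4me3 covered fewer bases at 11 of 55 genes and more at 18, against 32.3% and 49.2%, and the other 26 were equal. The median there was 4000 bp in both lists, and peaks that fill a window count as equal whatever their widths. In the end windows Hnrnpr and Srsf6 had 4000 bp in each list. Their widest peaks were 21354 bp and 6202 bp at Hnrnpr, and 5368 bp and 11742 bp at Srsf6. Over the gene bodies with 2 kb on each side, the median share under H3K27ac was 48.8% in the control and 28.3% in the mutant, lower at 48 of 63 genes against 52.3% of all. The same median for H3K4me3 was 43.0% and 44.4%, but the share was lower in the mutant at 36 of 63 genes, against 42.0% of all, and higher at 25, against 56.5%.

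**Figure D1:**
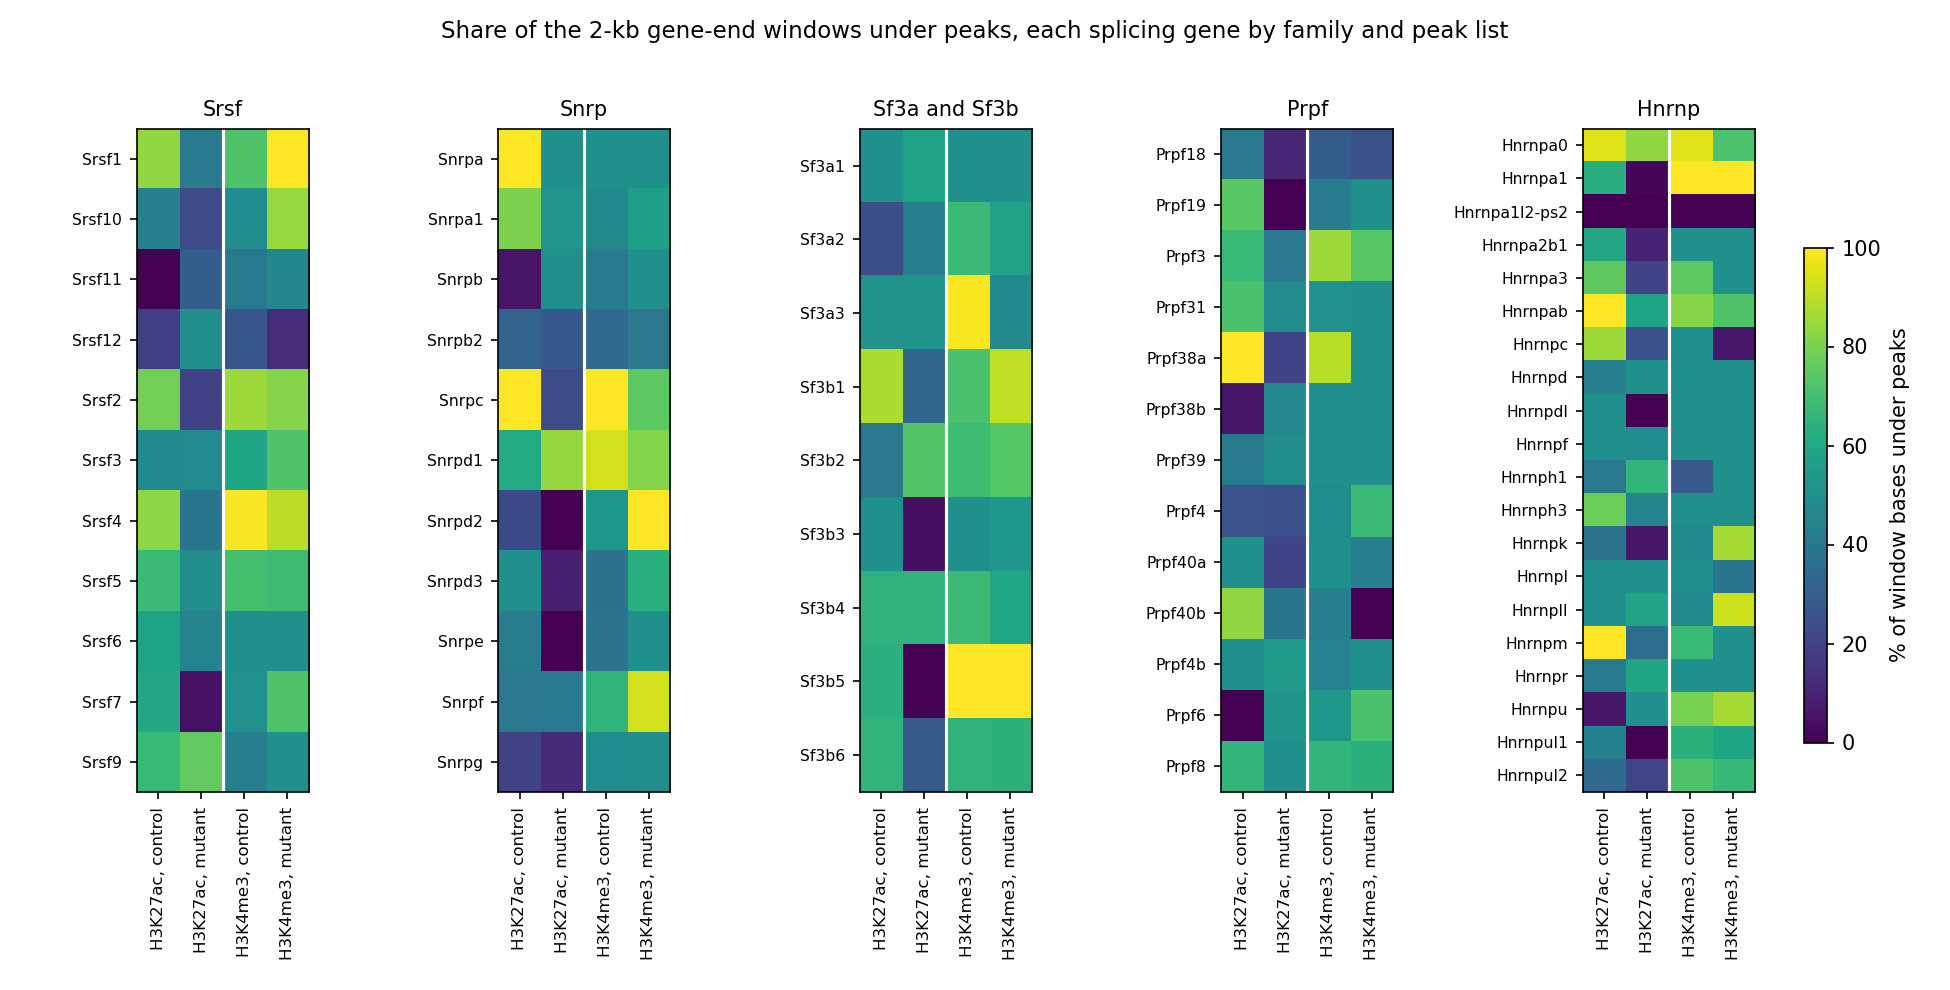
Share of the windows within 2 kb of the start and end of each of the 64 splicing factor and hnRNP genes that lies under peaks (color, in percent), for the 4 lists in columns and the genes in rows grouped by family. Most rows are filled in all 4 columns, the mutant H3K27ac column holds more dark, low-share cells than the control one, and Hnrnpa1l2-ps2 is at 0 throughout.

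The widest peak at each gene was also compared. The median H3K27ac peak was 10460 bp wide in the control and 5793 bp in the mutant, and over all marked genes 7668 bp and 4321 bp. The mutant peak was the narrower one at 42 of the 55 splicing genes marked in both lists, against 66.8% of all genes, and by more than 2-fold at 29, against 41.0%. It was more than 2-fold wider at 4, against 15.8%. The widest H3K27ac peak was thus more often the narrower one in the mutant over all marked genes as well as at the splicing genes, while the median width of all autosomal peaks was 1205 bp in the control list and 1088 bp in the mutant list. Peaks wider than 5 kb stood at 45 genes in the control and 33 in the mutant for H3K27ac, while 34.8% and 26.5% of all genes had such a peak. For H3K4me3 the median widest peak was 8332 bp in the control and 9536 bp in the mutant, and peaks over 5 kb stood at 46 and 56 genes, against 40.0% and 49.3%. The H3K4me3 peak was narrower in the mutant at 29 of 62 genes, against 36.9%, and by more than 2-fold at 6, against 10.3%. It was wider by more than 2-fold at 9, against 24%. No gene with a control H3K4me3 peak over 5 kb was without a peak in the mutant (0 of 46, against 2.60%), and for H3K27ac it was 2 of 45 (13.6%). More separate peaks were listed in the mutant than in the control at 18 of 55 genes for H3K27ac (30.8% of all genes) and at 7 of 62 for H3K4me3 (17.4%).

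**Figure D2:**
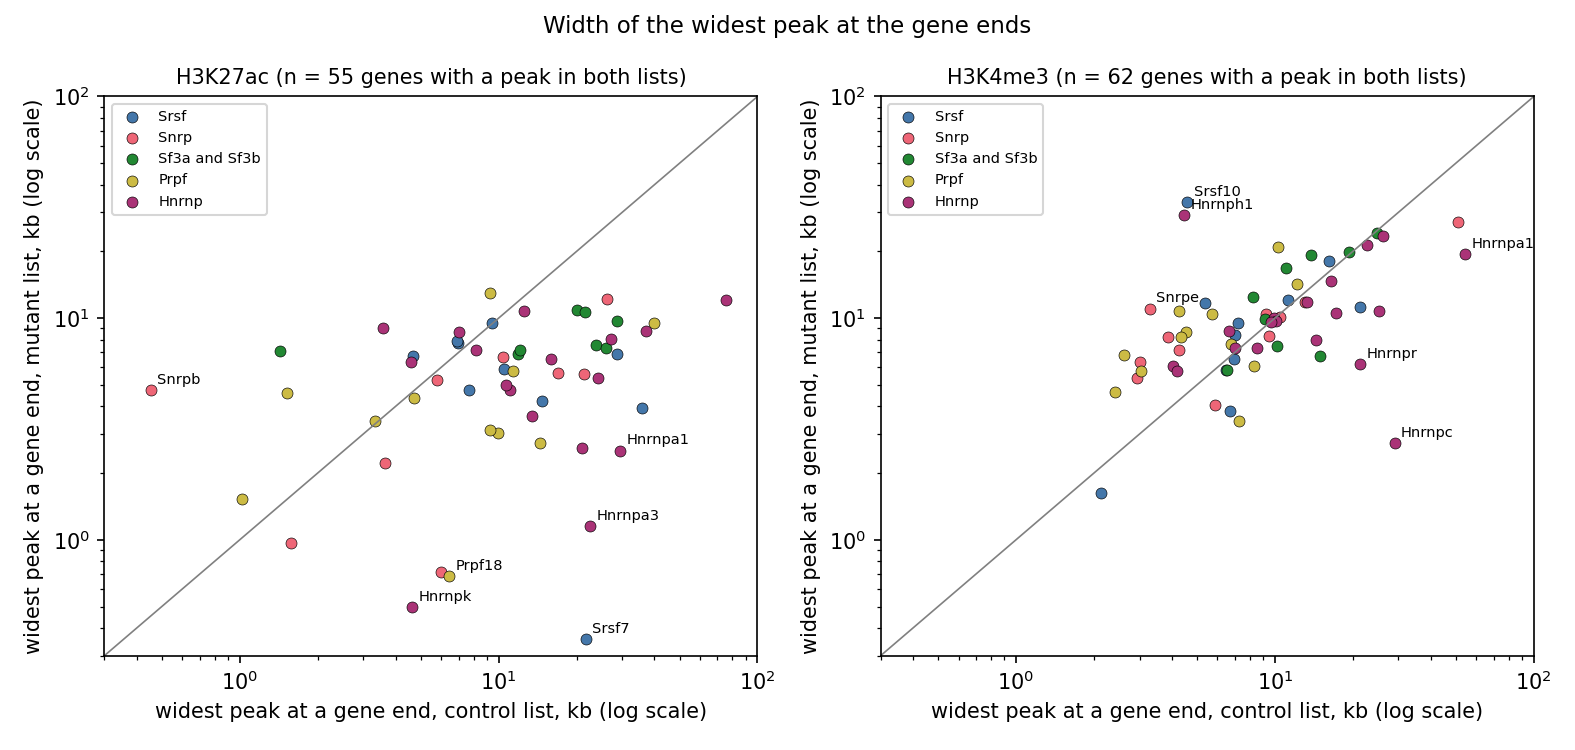
Width of the widest peak at each splicing factor or hnRNP gene in the control list (x axis, kb, log scale) and in the mutant list (y axis, kb, log scale), one panel per mark, with a line of equal width. Most H3K27ac points lie under the line, with Hnrnpf at 75751 bp in the control, while H3K4me3 points lie on both sides of it.

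The extremes of width were single loci. Hnrnpf, which encodes a G-run binding hnRNP, had a control H3K27ac peak of 75751 bp. It ran from 61303 bp before the start to 14447 bp inside the gene. The widest mutant H3K27ac peak at Hnrnpf was 12093 bp. Its H3K4me3 peaks were 26167 bp and 23505 bp wide, and its start site was under a peak in all 4 lists. Prpf8, the scaffold protein at the spliceosome's core, had an H3K27ac peak of 40012 bp in the control and 9503 bp in the mutant, and H3K4me3 peaks of 2404 bp and 4638 bp. The widest mutant H3K27ac peaks stood at Prpf4b, a kinase of the tri-snRNP, with 13048 bp against 9243 bp in the control, and at Snrpc with 12260 bp against 26132 bp. The widest H3K4me3 peaks of the control were at Hnrnpa1 (54438 bp) and Snrpc (51191 bp), and in the mutant they were 19492 bp and 27149 bp. Those of the mutant were at Srsf10, which activates or represses exons depending on its phosphorylation, with 33294 bp against 4596 bp, and at Hnrnph1 with 29138 bp against 4473 bp. No peak at a gene end was shared by 2 of the splicing genes. Many were shared with other genes: the widest peak lay over another gene at 36 of 61 genes for control H3K27ac, 23 of 57 for mutant H3K27ac, 35 of 63 for control H3K4me3 and 33 of 62 for mutant H3K4me3, so the lists cannot assign these peaks to the splicing gene alone. The same shares over all genes are not given here, so whether such sharing is usual cannot be said.

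The single base of the start site was examined next. A start was listed in the RefSeq promoter table for 56 of the 64 genes and for 16457 genes in all. H3K27ac lay over the start of 47 of the 56 genes in the control and 26 in the mutant, against 36.4% and 28.8% of all genes. H3K4me3 lay over 54 and 52, against 67.9% and 64.5%. Of the 47 control starts with H3K27ac, 27 had none in the mutant, and over all genes this share was 49.5%. For H3K4me3 it was 3 of 54 against 10.9%. H3K27ac was absent from the start in the mutant while H3K4me3 stayed at 25 of the 44 genes that had both marks in the control and H3K4me3 in the mutant, against 48.0% of all such genes. Both H3K27ac shares are near those of all genes, so they are not a result about the splicing genes in particular. At 6 of the 9 starts without H3K27ac in the control there was a peak in the mutant, against 16.5% of all genes. These 6 starts all had H3K4me3 in the control, while the 16.5% is over starts with and without it, so the sets are unlike.

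**Figure D3:**
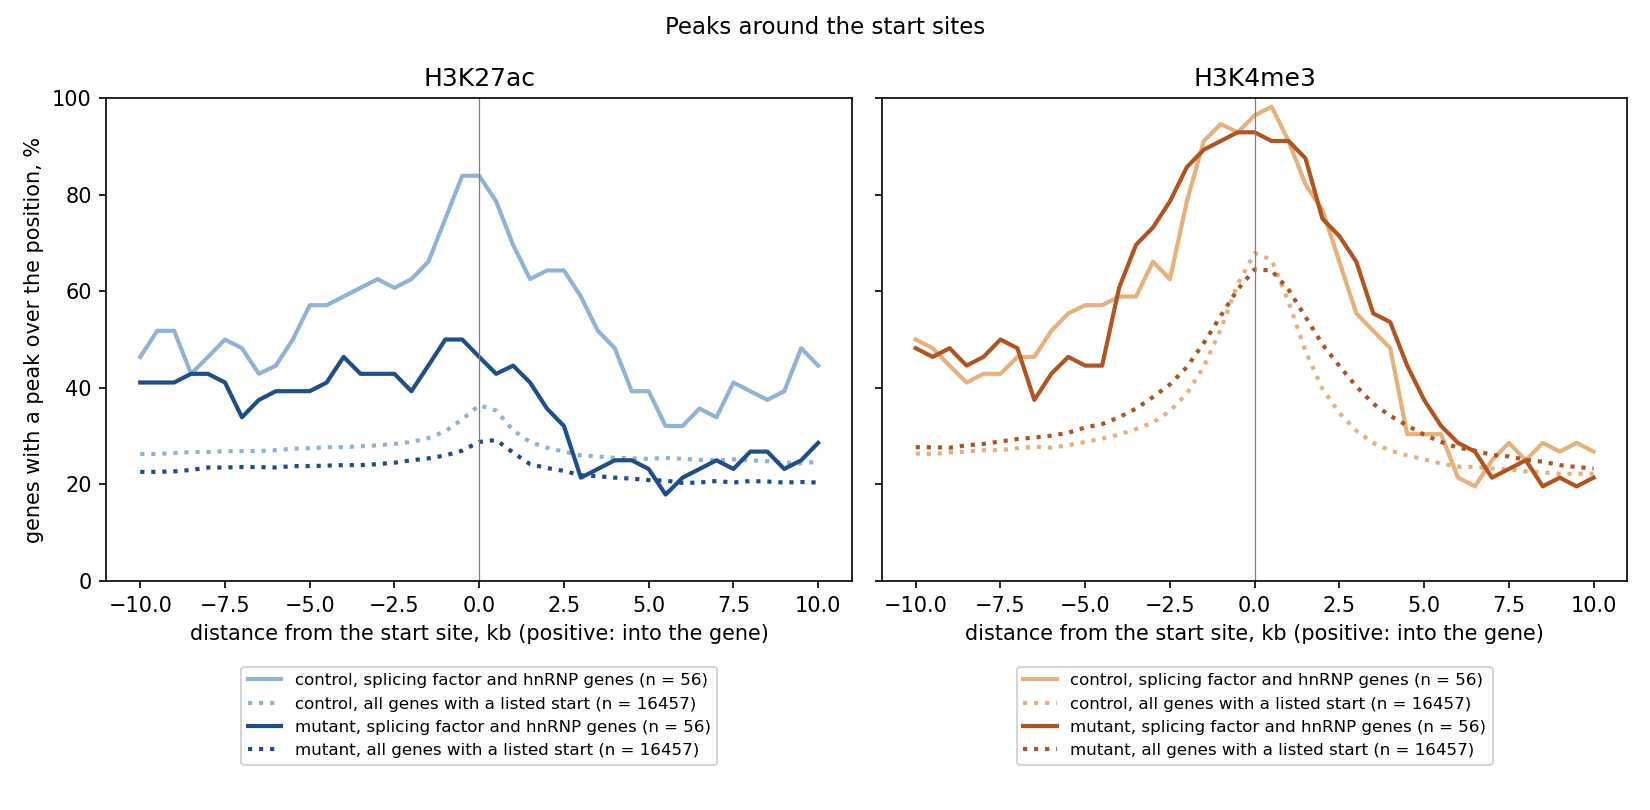
Share of genes with a peak over each position (y axis, percent) by distance from the start site (x axis, kb), for H3K27ac and H3K4me3, in the 56 splicing factor and hnRNP genes (solid) and in all 16457 genes with a listed start (dotted), control in the light and mutant in the dark color. At the start itself H3K27ac lay over 83.9% of the splicing genes in the control and 46.4% in the mutant (36.4% and 28.8% of all genes), and H3K4me3 over 96.4% and 92.9% (67.9% and 64.5%).

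Counting both marks at once, 19 of the 56 starts carried both in both groups, against 16.7% of all starts, and 25 carried both in the control and H3K4me3 alone in the mutant, against 15.5%. Both marks lay over 34.7% of all starts in the control and 25.3% in the mutant, so more of the splicing genes could enter either class. Another 6 went from H3K4me3 alone in the control to both in the mutant: Hnrnpu, Prpf6, Prpf38b, Srsf11, Snrpf and Sf3b2. The nearest control H3K27ac peak was only 58 bp from the start of Snrpf, and between 2241 bp (Sf3b2) and 10485 bp (Prpf38b) from the others. Prpf40b had both in the control and H3K27ac alone in the mutant. Srsf12 and Hnrnpc had both in the control and neither in the mutant. Prpf8 had no mark over its start in the control, where the nearest H3K4me3 peak was 78 bp away, and H3K4me3 in the mutant, Sf3a3 had H3K4me3 alone in both groups, and Hnrnpa1l2-ps2 had neither. Where the control peak over the start was wider than 5 kb, H3K27ac was absent in the mutant at 18 of 30 genes, against 44.7% of all genes. Where it was narrower, it was absent at 9 of 17, against 60.1%. Over all genes the share was lower for wide control peaks, and among these few splicing genes it was not.

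**Figure D4:**
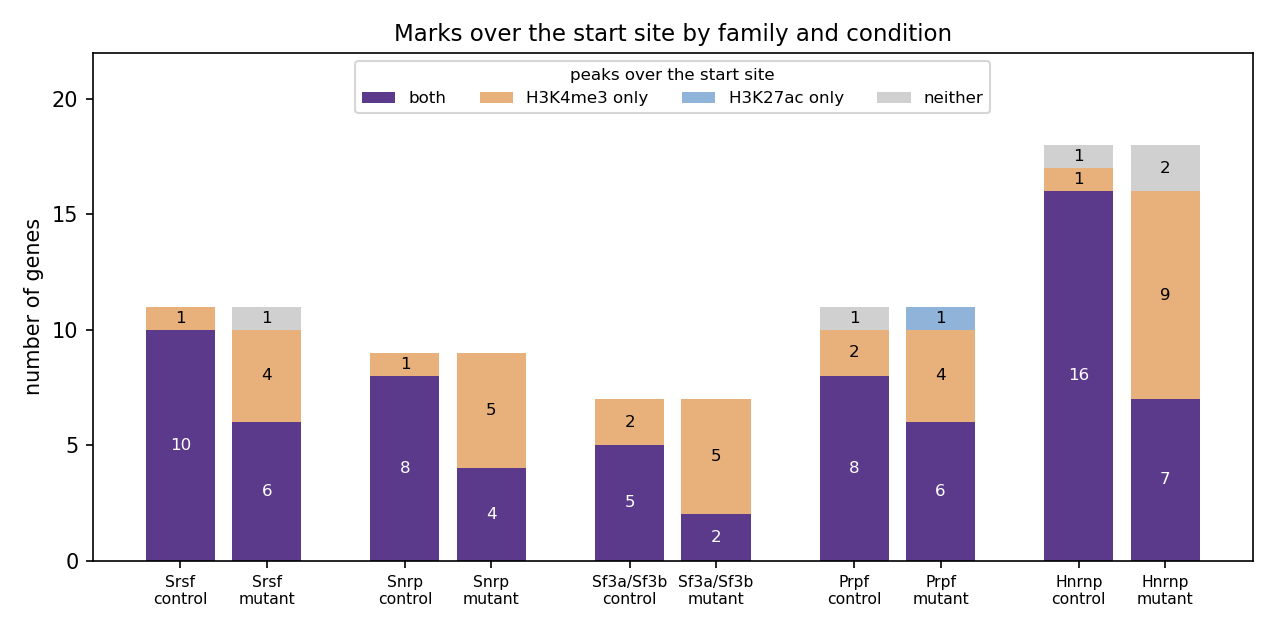
Number of start sites (y axis) with both marks, H3K4me3 alone, H3K27ac alone or neither (stacked colors) in the control and mutant lists, for the 5 families (x axis). The part with both marks is smaller in the mutant in each family, and H3K4me3 alone takes most of its place.

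The H3K27ac peaks over starts reached less far in both directions in the mutant list, at the splicing genes and over all genes. Each median is over the starts with a peak in that list, 47 and 26 for H3K27ac and 54 and 52 for H3K4me3, so the genes behind them differ. Among the splicing genes the median H3K27ac peak over a start reached 4197 bp upstream and 3282 bp into the gene in the control, and 2044 bp and 1892 bp in the mutant. The H3K4me3 peak reached 3816 bp and 3230 bp in the control and 4190 bp and 4026 bp in the mutant. Over all genes the H3K27ac medians were 3538 bp and 3096 bp in the control and 2134 bp and 2117 bp in the mutant, and those of H3K4me3 were 2032 bp and 2168 bp, then 2763 bp and 3241 bp. At the 27 starts with H3K27ac in the control alone, the nearest mutant H3K27ac peak was a median of 1648 bp away, against 2903 bp over all genes of that kind. It was within 2 kb at 15 of them, 7 upstream and 8 downstream, against 39.5% of all. It was beyond 5 kb at 9, against 32.4%. At the far end of the gene, H3K27ac lay over 19 of 56 ends in the control and 14 in the mutant (20.8% and 18.3% of all genes), and H3K4me3 over 11 in each (20.2% and 21%). At the position 5 kb before the far end, which in short genes lies at or before the start, the H3K27ac lists were further apart, with 29 and 11 genes (22.7% and 19.3%), while H3K4me3 lay over 25 and 22 (22.6% and 23.5%). The H3K27ac gap varied with the position. It was 21 and 13 genes at 2500 bp before the far end (21.6% and 18.4%), and 30 and 11 at 7000 bp (23.6% and 19.5%).

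Promoter sequence is shown for 5 genes whose 250 bases before the start lie outside every annotated gene and hold CGGAAG, the core recognized by ETS family factors such as GABPA, which is known at many housekeeping promoters. They cover the different patterns at the start: Prpf6 had H3K27ac in the mutant alone, Prpf19, Sf3b6 and Snrpg in the control alone, and Snrpa1 in both. Prpf6 follows from the size of its difference, and the other 4 were chosen after their values were seen. The sequences are from RefSeq's GRCm38.p6 and read 5′ to 3′ towards the start, with CGGAAG or its reverse complement CTTCCG in capitals.
Prpf6, chr2:181601069-181601318, plus strand: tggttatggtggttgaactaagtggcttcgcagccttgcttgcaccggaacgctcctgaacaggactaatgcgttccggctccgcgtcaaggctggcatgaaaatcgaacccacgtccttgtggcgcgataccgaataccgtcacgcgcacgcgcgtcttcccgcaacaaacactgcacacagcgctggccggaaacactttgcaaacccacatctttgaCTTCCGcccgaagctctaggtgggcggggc
Prpf19, chr19:10894981-10895230, plus strand: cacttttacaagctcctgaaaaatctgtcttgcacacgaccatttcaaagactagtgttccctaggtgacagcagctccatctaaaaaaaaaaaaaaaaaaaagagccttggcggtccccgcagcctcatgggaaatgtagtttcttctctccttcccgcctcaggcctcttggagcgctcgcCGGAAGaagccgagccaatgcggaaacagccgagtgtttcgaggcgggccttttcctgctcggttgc
Snrpa1, chr7:66060086-66060335, plus strand: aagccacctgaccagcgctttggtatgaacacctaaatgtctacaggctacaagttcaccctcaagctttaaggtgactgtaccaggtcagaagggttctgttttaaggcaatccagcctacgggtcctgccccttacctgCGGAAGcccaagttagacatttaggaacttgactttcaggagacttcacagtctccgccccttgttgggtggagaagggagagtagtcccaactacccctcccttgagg
Sf3b6, chr12:4817358-4817607, plus strand: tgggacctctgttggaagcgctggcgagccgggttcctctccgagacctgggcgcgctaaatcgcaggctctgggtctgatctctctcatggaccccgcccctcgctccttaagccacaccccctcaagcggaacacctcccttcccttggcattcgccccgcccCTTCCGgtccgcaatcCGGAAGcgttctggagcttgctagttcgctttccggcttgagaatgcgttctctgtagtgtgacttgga
Snrpg, chr6:86371290-86371539, plus strand: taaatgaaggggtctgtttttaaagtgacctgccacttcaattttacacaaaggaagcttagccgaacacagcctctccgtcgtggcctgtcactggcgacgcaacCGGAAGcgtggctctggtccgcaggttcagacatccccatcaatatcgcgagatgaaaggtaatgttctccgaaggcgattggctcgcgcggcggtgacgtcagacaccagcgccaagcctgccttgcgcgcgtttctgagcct

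CGGAAG on either strand was found in these 250 bases at 29 of the 56 genes, 51.8%, against 17.6% of all 16457. Much of that contrast was also seen among genes with H3K4me3 over the start in both lists, where the shares were 29 of 51 splicing genes, 56.9%, and 25% of all. The GC box GGGCGG was found at 37 genes (66.1%, against 43.6% of all promoters), CCAAT at 26 (46.4% against 36.3%), TATAAA at 6 (10.7% against 12.5%) and CACGTG at 5 (8.93% against 6.73%), each on either strand. Among genes with H3K4me3 over the start in both lists, the GC box shares were close, 68.6% of the splicing genes and 61.9% of all, and CCAAT stood at 43.1% and 35.8%. The order turned for CACGTG, 7.84% and 8.72%, and for TATAAA, 9.80% and 5.83%. A GC box and CGGAAG can overlap by a few letters. Median CpG dinucleotides in the window numbered 19 at the splicing genes, 10 at all genes and 17 at genes with H3K4me3 in both lists. Within the splicing genes, CGGAAG was found at 13 of the 27 starts with H3K27ac in the control alone and 11 of the 20 with it in both, the GC box at 16 and 17, and CCAAT at 15 and 6, and the median number of CpG was 21 and 20.5. These matches are letters in the window and were not tested as binding sites.

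Among the SR protein genes (Srsf), H3K27ac lay over 10 of 11 starts in the control and 6 in the mutant, and H3K4me3 over 11 and 10. At Srsf1, which regulates splicing and nonsense-mediated decay, H3K27ac covered 6669 bp of the end windows in the control and 3335 bp in the mutant, and H3K4me3 5794 bp and 8000 bp, with both marks over the start in each group. Srsf2, which binds exonic enhancers, had 6111 bp and 1520 bp of H3K27ac and 6630 bp and 6369 bp of H3K4me3. Srsf7 had 4814 bp and 355 bp of H3K27ac and 4041 bp and 5810 bp of H3K4me3. Neither Srsf2 nor Srsf7 had H3K27ac over its start in the mutant. Srsf3, which couples splicing with mRNA export, shows why covered bases alone can miss a difference. They numbered 3840 and 3855 for H3K27ac, but in the control a single peak of 35733 bp ran over the start to 1544 bp inside the gene, while the mutant peak nearest to it ended 278 bp before the start. The rest of the mutant bases lay under peaks of 1631 bp and 2023 bp at the far end of the gene. Its H3K4me3 covered 4725 bp and 5791 bp and lay over the start in both groups. At Srsf10 H3K27ac covered 3483 bp and 1813 bp, and H3K4me3 3892 bp and 6756 bp. Srsf11 went the other way, with 0 and 2352 bp of H3K27ac beside 3228 bp and 3677 bp of H3K4me3.

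The Snrp genes had H3K27ac over 8 of 9 listed starts in the control and 4 in the mutant. Snrpe, an Sm ring protein shared by the major snRNPs, had 3381 bp of H3K27ac in the control, in a peak from 1381 bp before to 2509 bp after the start, and none in the mutant. Its H3K4me3 covered 3058 bp and 4000 bp, with the peak over the start 3285 bp wide in the control and 11049 bp in the mutant. Snrpd2 had 1651 bp and 0 of H3K27ac and 3871 bp and 7290 bp of H3K4me3. In both Sm genes the mutant list thus had more H3K4me3 where it had no H3K27ac, and 53.1% of all genes had more H3K4me3. The other genes with end-window H3K27ac in the control alone varied. There H3K4me3 was higher in the mutant at Prpf19, equal at Sf3b5 and Hnrnpdl, and lower at Hnrnpul1. Snrpc, a U1 snRNP protein that contacts the 5′ splice site, had 8000 bp and 1821 bp of H3K27ac, and 8000 bp and 5985 bp of H3K4me3. Snrpb, the Sm protein paired with Snrpd3, had more H3K27ac in the mutant, 4000 bp against 453 bp, and 3320 bp and 4000 bp of H3K4me3. Snrpd1 had 4893 bp and 6738 bp of H3K27ac, and 7452 bp and 6504 bp of H3K4me3. Over the whole gene and its flanks the H3K4me3 order was the opposite, 68% in the control and 89.6% in the mutant. The Sm genes thus included some without any H3K27ac in the mutant and some with more of it than in the control.

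Of the Sf3a and Sf3b genes, which encode the U2 snRNP's branch point complexes, 5 of 7 listed starts carried H3K27ac in the control and 2 in the mutant. At Sf3b1, the largest subunit and the one that clamps the branch point helix, H3K27ac covered 7000 bp in the control and 2628 bp in the mutant, and H3K4me3 5705 bp and 7249 bp. Over the whole gene and its flanks the H3K4me3 order was the opposite, 48% in the control and 29.2% in the mutant. The control H3K27ac peak spanned 6738 bp before to 5169 bp after the start. The nearest mutant H3K27ac peak was one of 1450 bp beginning 1524 bp inside the gene, while H3K4me3 peaks of 19280 bp and 19968 bp lay over the start. Sf3b5 had 2995 bp and 0 of H3K27ac, with 4734 bp of H3K4me3 in both groups. Sf3a1 had 4000 bp and 4602 bp of H3K27ac over both end windows and 4000 bp of H3K4me3 in each group. Over Sf3a1 and its flanks the shares were 25.7% and 52.3% for H3K27ac, and 28.5% and 73.6% for H3K4me3. H3K27ac lay over its start in both lists, in a peak that reached 4736 bp into the gene in the control and 1380 bp in the mutant, and the mutant list had a further peak of 1221 bp at the far end. Sf3a3 had 4065 bp and 4131 bp of H3K27ac, none of it over the start, and 7911 bp and 3821 bp of H3K4me3. Over Sf3a3 and its flanks the H3K27ac share was 77.4% in the control and 50.9% in the mutant.

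The Prpf genes had H3K27ac over 8 of 11 listed starts in the control and 7 in the mutant, of which 3 were in the control alone and 2 in the mutant alone. Over the whole genes and their flanks, the H3K27ac share was lower in the mutant at 12 of 13, against 52.3% of all genes, with medians of 47.2% and 22.5%. It was lower at 8 of 11 Srsf, 8 of 11 Snrp, 6 of 9 Sf3a and Sf3b and 14 of 19 Hnrnp genes. Prpf38a and Prpf38b, related proteins of which PRPF38A joins the spliceosome before its activation, were on opposite sides. Prpf38a had 8000 bp of H3K27ac in the control and 1605 bp in the mutant, and 7131 bp and 4000 bp of H3K4me3. Prpf38b had 440 bp and 3746 bp of H3K27ac, and 3961 bp and 4000 bp of H3K4me3. At Prpf6, H3K27ac covered 0 and 4133 bp of the end windows and H3K4me3 4244 bp and 5686 bp. Over the whole gene and its flanks the order was the opposite for both marks. H3K4me3 lay over 50.2% of Prpf6 in the control and 32.7% in the mutant, and H3K27ac over 59.6% and 36.1%. The mutant H3K27ac peak there ran from 1083 bp before to 2652 bp after the start, inside the mutant H3K4me3 peak of 10494 bp. The control H3K4me3 peak over the start was 5703 bp wide. At the end windows Prpf19 was the reverse, with 5969 bp and 0 of H3K27ac and 3275 bp and 4000 bp of H3K4me3. Its control H3K27ac peak covered 1680 bp before to 1001 bp after the start, and the nearest mutant peak ended 2221 bp before it, just outside the window. Prpf8 had 5297 bp and 4000 bp of H3K27ac and 5260 bp and 5152 bp of H3K4me3, and H3K27ac lay over its start in neither group. Prpf40b had 6665 bp and 3123 bp of H3K27ac, and 3488 bp and 0 of H3K4me3.

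Among the Hnrnp genes, the largest family, 16 of 18 listed starts had H3K27ac in the control and 7 in the mutant. It was in the control alone at 10 of 16, against 4 of 5 in Sf3a and Sf3b, 5 of 8 in Snrp, 5 of 10 in Srsf, 3 of 8 in Prpf and 49.5% of all genes. At Hnrnpa1, which binds exonic and intronic silencers, H3K27ac covered 5051 bp and 144 bp, and H3K4me3 8000 bp, all of the end windows, in both groups. At Hnrnpa2b1, which also sorts RNA for transport, H3K27ac covered 4838 bp and 782 bp, and H3K4me3 4000 bp in both. There the control H3K27ac peak extended from 12694 bp before to 8298 bp after the start, and in the mutant the closest peak upstream ended 5423 bp before it. Hnrnpk, which binds C-rich RNA and DNA, had 3031 bp and 495 bp of H3K27ac, and 3817 bp and 6916 bp of H3K4me3. Hnrnpm had 8000 bp and 2905 bp of H3K27ac, and 5434 bp and 4000 bp of H3K4me3. Hnrnpdl and Hnrnpul1 had 4000 bp and 3516 bp of H3K27ac in the control and none in the mutant, and H3K4me3 of 4000 bp in both groups and of 5127 bp and 4716 bp. For Hnrnpul1 this concerned the ends alone, since H3K27ac lay over 37.3% of the gene and its flanks in the control and 35.7% in the mutant, while for Hnrnpdl it lay over 49.6% and 0. Hnrnpc, which binds uridine tracts, differed in both marks, with 6826 bp and 1999 bp of H3K27ac and 4000 bp and 550 bp of H3K4me3. Hnrnpu, a nuclear matrix protein, had more H3K27ac in the mutant, 4000 bp against 469 bp, and 6389 bp and 6927 bp of H3K4me3. Hnrnpll, an hnRNP L relative known from lymphocytes, had 4000 bp and 4666 bp of H3K27ac, and 3835 bp and 7403 bp of H3K4me3.

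**Figure D5:**
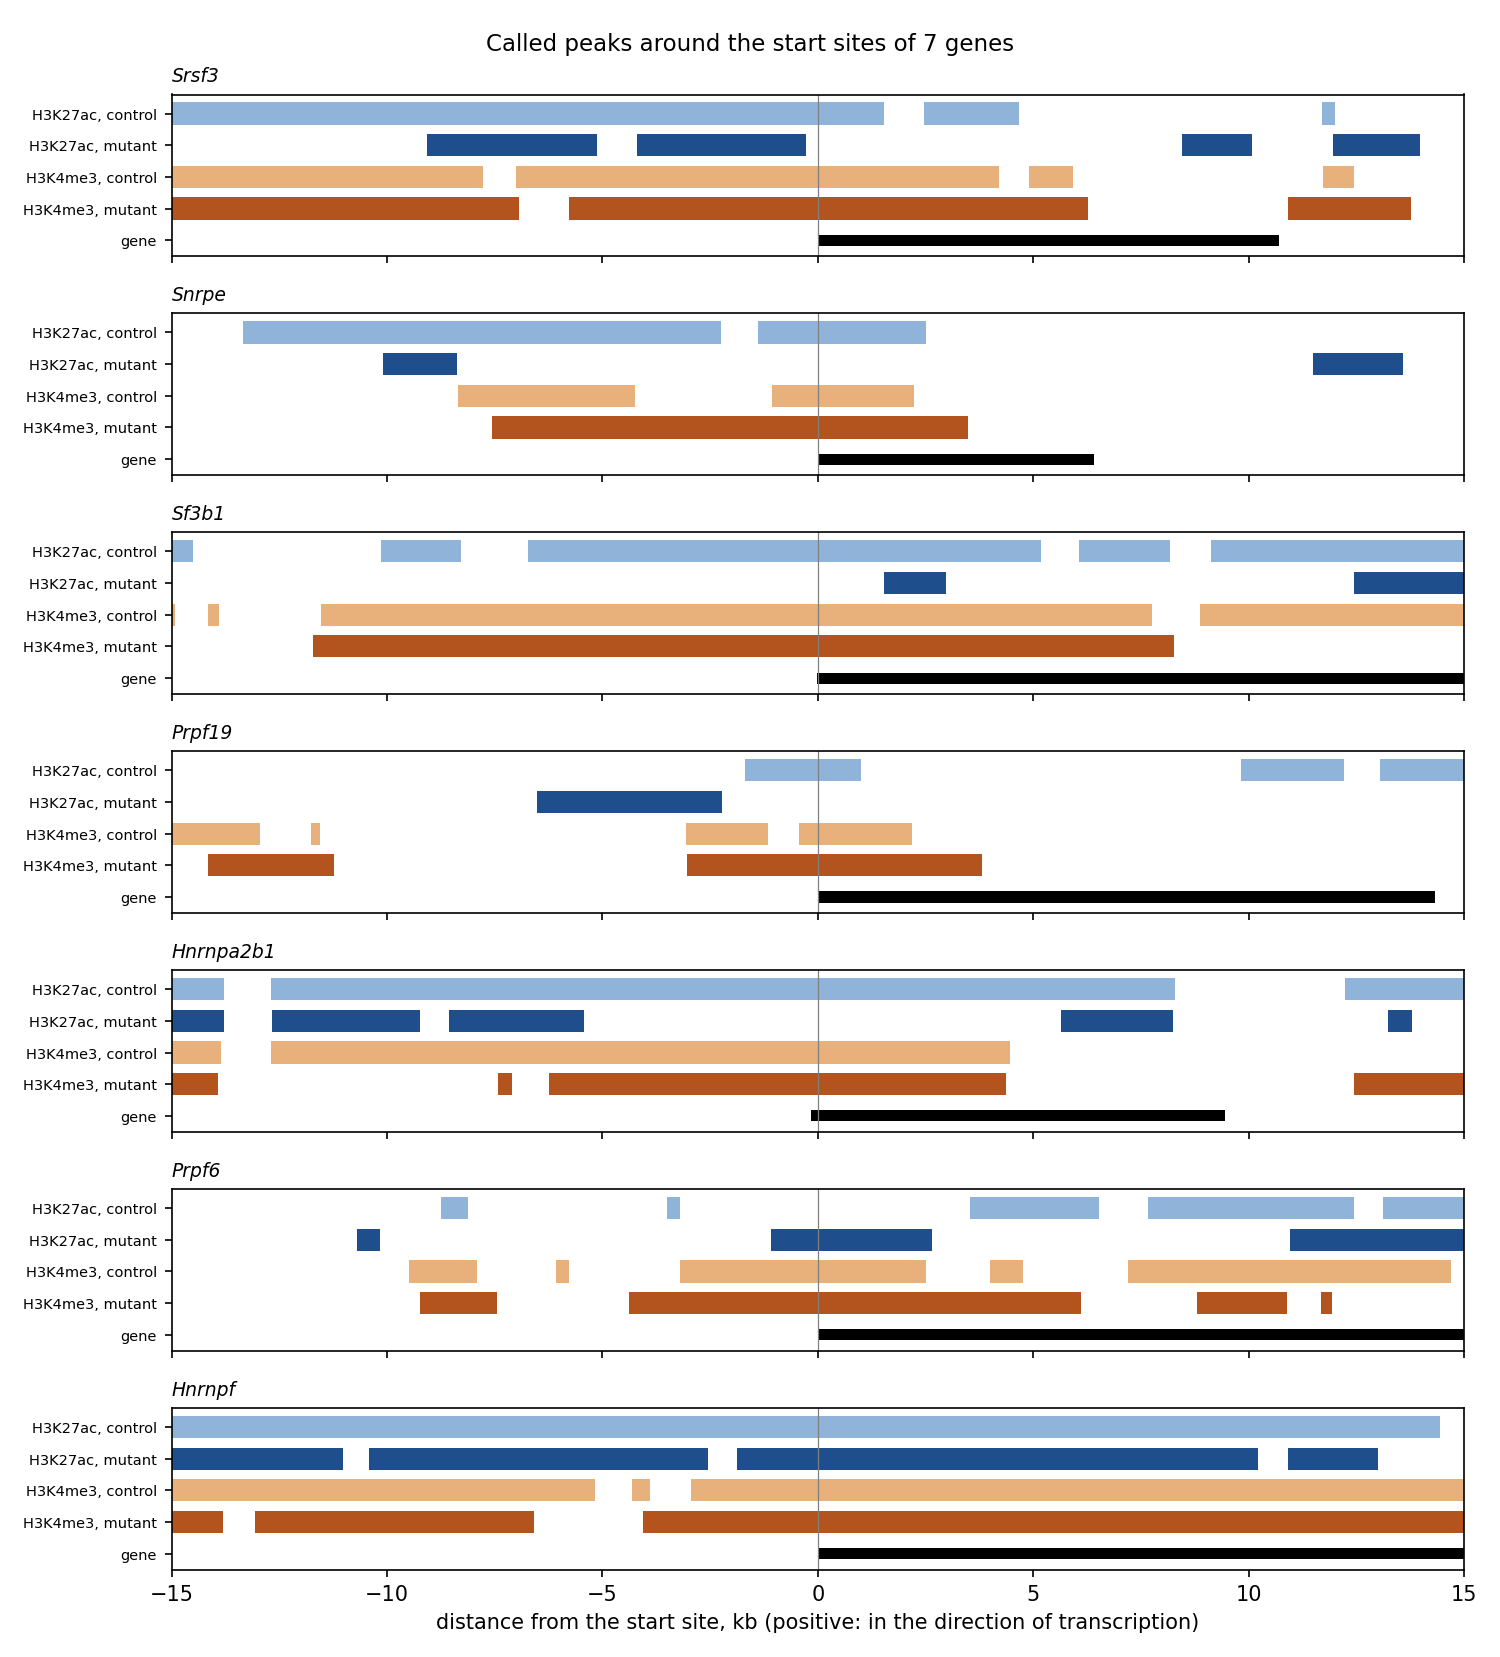
Called peaks (bars) within 15 kb of the start sites of 7 genes in the 4 lists, with distance from the start in kb along the direction of transcription on the x axis and the annotated gene as a black bar. At Srsf3, Snrpe, Sf3b1, Prpf19 and Hnrnpa2b1 the control H3K27ac peak over the start has no counterpart there in the mutant, at Prpf6 the reverse holds, and at Hnrnpf both lists have a peak.

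A list of 76 genes for further spliceosome and splicing proteins, of which 75 were matched, was counted the same way. H3K27ac was listed at the ends of 68 in the control and 57 in the mutant, and H3K4me3 at 74 and 71. Of the 68, 13 had no H3K27ac in the mutant, 19.1% against 9.84% of the Srsf, Snrp, Sf3, Prpf and Hnrnp genes and 22.6% of all genes. Both marks were present in both groups at 52 of 68, 76.5% against 88.5% and 76.8%. The median share of the end windows under H3K27ac was 54.9% in the control and 32.4% in the mutant. Among the 58 with a listed start, H3K27ac lay over 49 starts in the control and 22 in the mutant, and H3K4me3 over 57 and 52. H3K27ac over the start was in the control alone at 27 of 49, 55.1%, where all genes gave 49.5%. It was in the mutant alone at 0 of 9, where all genes gave 16.5%.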

How the data were processed

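The samples were 16 ULI-NChIP-seq libraries in 8 groups of 2, immunoprecipitated and input libraries for each mark and injection. The values used are the start and end of each peak in the 4 lists the authors deposited, 1 per mark and injection. The submitters' processing notes name CASAVA, Trimmomatic, Bowtie2, SAMtools, Picard, MACS2 and deepTools, and the builds mm10 and GRCm38. Their settings, the threshold for peaks and whether the 2 libraries were pooled are not given in the sources used here. The lists hold no height or score, and their read depth is unknown. The narrowest autosomal peak was 149 to 182 bp wide and the smallest gap between peaks 602 to 734 bp, depending on the list.

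Gene positions, start sites and promoter sequences came from RefSeq tables of GRCm38.p6. For each gene the windows of 2 kb on either side of its start and end were joined, and peaks overlapping them by at least 1 bp were counted and measured. A start was called marked where a peak covered that base. Shares over all genes were computed the same way. The genes named by rule are those whose marked state differed or that lacked a mark, the 4 with the largest difference in each direction per mark, the 2 with the widest peak per list, and 15 chosen by function. Others, such as Srsf12 and Snrpg, are named for the marks over their start, for their promoter sequence or as examples. The genes and lists were chosen with earlier results of these data known. Scripts ran in Python 3.11.15 with pandas 2.3.3 and numpy 2.4.6 and were tested on simulated data. Windows of 1 and 5 kb, windows moved by 10 kb, a larger overlap, merged or trimmed lists, the wider peaks alone and the start side alone were tried as alternatives.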

Additional observations from a re-analysis of the deposited data

How the results depend on the processing

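No paired analysis was possible because the deposited lists are 1 per mark and injection, and for the same reason no library could be left out. Most counts moved by less than 1.5 times under the other settings, 159 values against 15 that moved further. The number of genes with H3K27ac at a gene end in the control alone, 6, was 10 with windows of 1 kb, 10 with at least 500 bp in a window, 11 with the wider 50% of each list and 13 with the start side alone. The number with H3K27ac in the mutant alone, 2, was 4, 5, 4 and 4 under these settings in the same order, and 0 with windows of 5 kb. The number with H3K4me3 in the control alone, 1, was 2, 2, 2 and 3. On the start side alone, which covers 56 genes, the mutant to control ratio of the median H3K27ac coverage was 0.471, and H3K4me3 covered fewer bases at 11 genes. The small positive H3K27ac differences of Sf3a3 and Srsf3 turned negative: Sf3a3 was at -65 bp with lists of equal number and with common limits on gap and width, and Srsf3 at -440 bp with peaks under 1 kb apart merged. The cause was not tested. Start-site counts, whose alternatives were chosen after seeing the data, moved by at most 1 gene: the mutant list had H3K27ac over 26 to 27 starts. With windows moved by 10 kb, 48 to 53 of the 64 genes had a peak, depending on the list and direction, against 52.3% to 58.8% of all genes. Peak lists cannot show a difference in height, and an absent peak may be signal under the authors' threshold.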
